A study of Mus musculus with 6 samples.

Results

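The tumour necrosis factor (TNF) and TNF receptor superfamilies were examined in sorted mouse bone marrow cells on expression arrays. Members were the genes whose platform symbol begins with Tnfsf, Tnfrsf or Traf and a digit, together with Tnf, Lta, Ltb, Ltbr, Fas, Fasl, Ngfr, Eda and Edar. Tnfsf11, Tnfrsf11a and Tnfrsf11b, the RANK ligand system, were left out, as were probe sets with several symbols. This gave 42 genes with 73 probe sets, of 18193 named genes on the array: 11 ligands, 21 receptors, 6 TRAF adaptors, 3 genes named for binding TRAF3, and the antisense transcript Tnfsf13os. A gene was tested where a probe set lay above log2 4 on at least 3 of the 6 arrays, which 22 members met. They were 2 ligands, 12 receptors, 5 adaptors and 3 TRAF3-interacting genes, among 10151 tested genes in all.

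The arrays came from 3 Grem1;TdTomato reporter mice on a C57BL/6J background, aged 6 to 8 weeks and given tamoxifen by mouth. Digested marrow of each mouse was sorted into fractions. For Grem1+ the labels name no gate beyond Grem1 itself. Grem1- was non-recombined and gated negative for CD45, CD31 and Ter-119, which is not stated for Grem1+. All groups share the reporter and the tamoxifen, and no untreated mouse was included in the samples used here. Recombination marks cells in which the Grem1 driver was active and also their descendants, so the label need not follow the Grem1 transcript at harvest.

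TNF ligands are mostly made as membrane proteins that act on neighbouring cells or are shed by proteases. Many of their receptors carry a death domain, which can start apoptosis, or bind TRAF adaptors, which lead to NF-kappaB and stress kinases. In marrow, several members set the survival of B cells and the inflammatory activity of myeloid and stromal cells, and TRAIL receptors are known from cartilage, bone and many other tissues.

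The log2 medians of the arrays were 3.74 to 3.81. The Gapdh control probe sets for the 3′ and 5′ ends of the transcript, whose difference is larger where RNA or its labelled copy is shorter, differed by 2.31, 2.99 and 2.68 in Grem1- and by 2.98, 3.88 and 3.87 in Grem1+ (mice 1, 2 and 3). This difference was higher in Grem1+ within each mouse, and its part in the results was not tested. The labels give all mice as male, yet both fractions of mouse 3 had high Xist, the RNA that silences an X chromosome in female cells (10.60 and 11.04), while the arrays of mice 1 and 2 did not exceed 2.99. Values without mouse 3 are therefore given beside each TNF superfamily or pathway gene that passed the test. Genes of blood cells were present in the Grem1- fraction despite its gate: 18 pan-haematopoietic markers averaged 9.60 to 9.86 on its arrays and 6.04 to 7.22 on the Grem1+ arrays, and 13 of the 18 fell. The mean over 20 chondrocyte markers was 6.53 to 7.19 in Grem1- and 10.53 to 10.80 in Grem1+, and 17 of 20 rose. Of 11 tested osteoblast markers 6 rose, and of 9 tested erythroid markers 6 fell. Of the 13 endothelial markers, 8 were too dim to test and 0 of the other 5 passed. These are bulk RNA samples, so fewer cells of a type and less RNA per cell cannot be told apart. The part of these marker shifts in the results for the TNF genes was not tested.

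The comparison asked which TNF superfamily genes distinguish Grem1+ cells from the other sorted marrow cells. Of 12 tested receptors 4 rose (33.3%, against 11.7% of all genes) and 8 did not pass. The genes that fell were a ligand, an adaptor and a TRAF3-interacting gene. The most negative difference of the 22 members, -2.65, was that of a receptor, Tnfrsf1b, which did not pass (limma adjusted p = 0.0539). Tnfrsf10b, Tnfrsf12a, Tnfrsf22 and Tnfrsf9 were higher in Grem1+, and Tnfsf13b, Traf3ip3 and Traf4 were lower. Thus 7 of 22 tested members passed a limma adjusted p of 0.05, or 31.8%, where 20.2% of all tested genes passed. In Grem1+, 4 of 22 were higher (18.2%, against 11.7% of all genes) and 3 were lower (13.6%, against 8.51%). Of the lower members, Traf4 was above log2 4 only on Grem1- arrays, so it entered the test through that fraction alone. The median difference over the 22 members was -0.02 on the log2 scale and that over all tested genes was 0.04. The values of the 6 arrays did not overlap between fractions for 8 members, 36.4% of those tested, where 43.1% of all genes did not overlap.

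**Figure D1:**
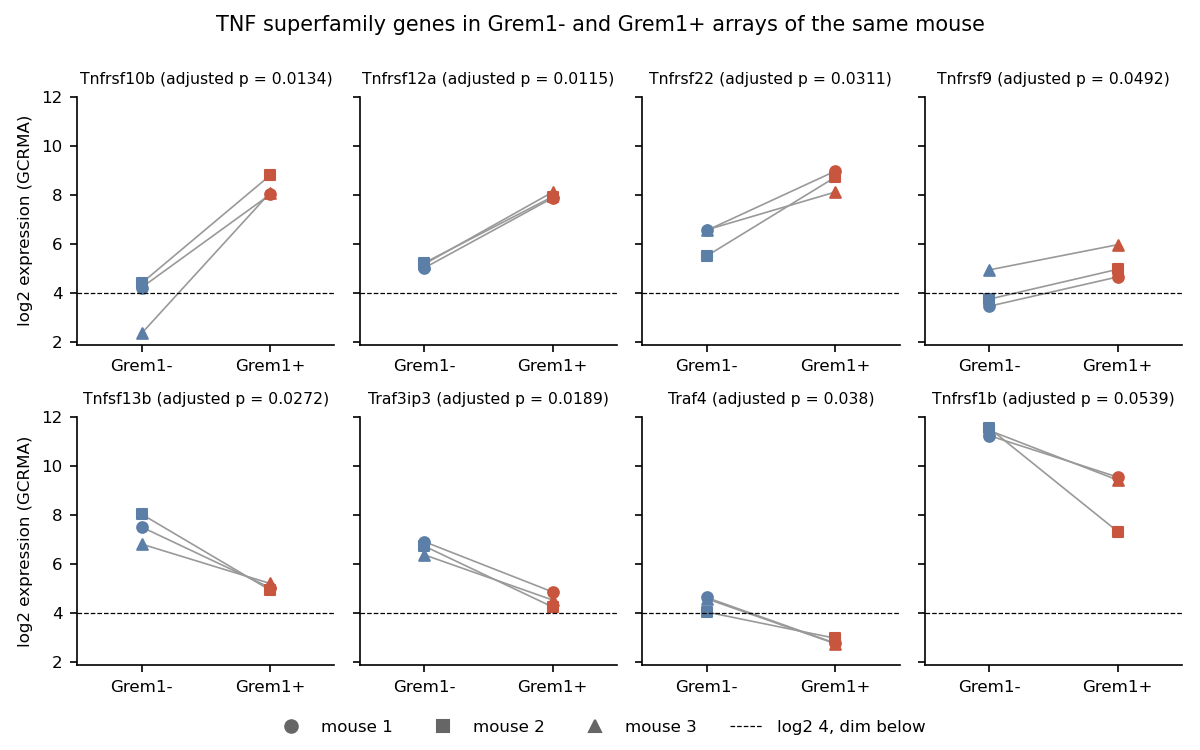
Log2 expression of the 7 genes past the threshold and of Tnfrsf1b in the Grem1- (blue) and Grem1+ (red) array of each mouse; lines join the fractions of a mouse and the dashed line marks log2 4. The Grem1+ arrays of Tnfrsf10b sit at 8.01 to 8.80 against 2.33 to 4.39, and those of Tnfsf13b at 4.93 to 5.20 against 6.81 to 8.03.

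Of the 7 genes that passed, 5 had at least 1 start site in the RefSeq promoter table (GRCm38.p6), and Tnfrsf10b and Tnfrsf22 had no entry. The 250 bases before each start were searched on both strands for the NF-kappaB consensus, an AP-1 site, TGANTCA, an ETS site, CCGGAAG, and a TATA box, TATAAA. NF-kappaB and AP-1 are end points of TNF receptor signalling. Each window that held a match to any of these motifs is shown, 5′ to 3′ on the gene's strand, with the matches in capitals. Those of Tnfrsf12a and Traf4 held no NF-kappaB or AP-1 match. The Tnfrsf9 and Tnfsf13b windows each belong to the downstream of 2 listed starts. Tnfrsf12a is at chr17:23677450-23677699 (minus strand), Tnfrsf9 at chr4:150927749-150927998 (plus), Tnfsf13b at chr8:10006383-10006632 (plus) and Traf4 at chr11:78165551-78165800 (minus).
Tnfrsf12a: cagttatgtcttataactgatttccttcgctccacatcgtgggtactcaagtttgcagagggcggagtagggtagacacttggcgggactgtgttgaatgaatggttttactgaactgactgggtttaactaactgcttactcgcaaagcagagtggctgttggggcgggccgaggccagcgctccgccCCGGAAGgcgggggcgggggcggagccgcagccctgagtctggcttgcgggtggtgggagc
Tnfrsf9: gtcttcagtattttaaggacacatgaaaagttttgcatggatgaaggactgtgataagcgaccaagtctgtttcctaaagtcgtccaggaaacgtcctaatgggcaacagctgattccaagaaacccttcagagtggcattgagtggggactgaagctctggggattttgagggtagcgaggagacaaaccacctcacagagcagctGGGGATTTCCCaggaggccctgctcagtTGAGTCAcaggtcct
Tnfsf13b: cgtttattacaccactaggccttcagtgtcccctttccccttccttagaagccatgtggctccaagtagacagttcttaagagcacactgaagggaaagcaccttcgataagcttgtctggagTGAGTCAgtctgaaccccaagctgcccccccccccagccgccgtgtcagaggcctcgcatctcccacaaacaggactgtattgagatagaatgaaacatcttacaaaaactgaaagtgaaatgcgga
Traf4: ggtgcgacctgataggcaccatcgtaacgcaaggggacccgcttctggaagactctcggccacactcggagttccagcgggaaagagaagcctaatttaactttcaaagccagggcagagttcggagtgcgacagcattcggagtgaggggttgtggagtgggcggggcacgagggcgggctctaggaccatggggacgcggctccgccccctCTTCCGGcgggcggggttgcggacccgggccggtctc
The Tnfrsf9 window held overlapping NF-kappaB matches that begin 43 and 42 bases before the start and an AP-1 match that begins 15 bases before it. The Tnfsf13b window held an AP-1 match 127 bases before the start. Tnfrsf12a and Traf4 each held an ETS match, 61 and 37 bases before their starts. Of all 32851 windows of this length in the table, 7.25% held the NF-kappaB consensus, 6.75% the AP-1 letters, 6.91% the ETS letters and 12.4% the TATA letters. The Traf3ip3 window and the upstream windows of Tnfrsf9 and Tnfsf13b held none of these motifs. A match is a description of the sequence only.

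Among the receptors, Tnfrsf10b had the largest difference of the 22 tested members. It encodes the death-domain receptor for TRAIL, which can start apoptosis. Tnfrsf10b (Entrez gene 21933) stood at 4.21, 4.39 and 2.33 in the Grem1- arrays of mice 1, 2 and 3 and at 8.01, 8.80 and 8.09 in their Grem1+ arrays. Every Grem1+ array was above every Grem1- array, and the Grem1- array of mouse 3 was dim, that is below log2 4. The difference was 4.66 (SE 0.47, limma adjusted p = 0.0134, n = 3 mice) and was positive in each mouse, at 3.81, 4.41 and 5.75. With values below log2 4 set to 4 it was 4.10, and without mouse 3 it was 4.11. A second probe set, whose name ends in _s_at, stood at 3.24 to 3.58 in Grem1- and at 5.80 to 6.81 in Grem1+. It was above log2 4 on Grem1+ arrays only, so it met the filter through that fraction alone.

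Tnfrsf22 and Tnfrsf23 encode mouse TRAIL receptors that lack a death domain, and lie in a cluster of closely related genes, so signal on their probe sets may be shared. Tnfrsf22 (Entrez gene 79202) stood at 6.54, 5.50 and 6.56 in Grem1- and at 8.96, 8.72 and 8.11 in Grem1+ (mice 1, 2 and 3). The fractions did not overlap. The difference was 2.40 (SE 0.42, limma adjusted p = 0.0311). Leaving out mouse 3 gave 2.82. Its 2 other probe sets were below log2 4 on all 6 arrays. When dim probe sets were kept, Tnfrsf22 did not pass (adjusted p = 0.0642). Tnfrsf23 was not tested, at 4.10, 3.28 and 3.68 in Grem1- and 3.90, 4.81 and 3.998 in Grem1+. Tnfsf10, the gene of TRAIL itself, was below log2 4 on all 6 arrays with each of its 3 probe sets.

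Tnfrsf12a encodes the receptor for TWEAK, a small receptor that signals through TRAF adaptors and is known for induction by growth factors and injury. Tnfrsf12a (Entrez gene 27279) stood at 5.004, 5.21 and 5.16 in Grem1- and at 7.87, 7.92 and 8.11 in Grem1+, the smallest spread within each fraction among the 4 receptors that rose. The fractions were 2.84 apart (SE 0.25, limma adjusted p = 0.0115), by 2.87, 2.71 and 2.95 in mice 1, 2 and 3. Its other probe set, which is not of the type that other transcripts may share, stood at 3.64 to 4.07 in Grem1- and at 6.74 to 6.85 in Grem1+. Without mouse 3 the difference was 2.79.

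Tnfrsf9 (Entrez gene 21942), a costimulatory receptor best known from activated T cells, passed narrowly. Its arrays stood at 3.44, 3.73 and 4.93 in Grem1- and at 4.64, 4.95 and 5.96 in Grem1+. The fractions overlapped, with mouse 3 highest in both, while within each mouse Grem1+ was higher by 1.20, 1.22 and 1.03. The difference was 1.15 (SE 0.25, limma adjusted p = 0.0492). It was 0.88 with values below log2 4 set to 4 (adjusted p = 0.0865), it did not pass without the mouse as a block (adjusted p = 0.172), and it was 1.21 without mouse 3. Its 2 other probe sets were below log2 4 on all arrays. Of 18 T and NK cell markers 8 were tested, 0 rose and 1 fell, and their mean was 4.73 to 5.18 in Grem1- and 4.13 to 5.17 in Grem1+.

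The other 8 tested receptors did not pass. Tnfrsf1b, the TNF receptor of blood cells and endothelium, stood at 11.25, 11.55 and 11.46 in Grem1- and at 9.55, 7.32 and 9.43 in Grem1+. The fractions did not overlap, and mouse 2 was lowest in Grem1+. The difference of -2.65 (SE 0.61) just missed the threshold (limma adjusted p = 0.0539), and it passed under 6 of 16 alternatives, among them without the block (adjusted p = 0.0253). Leaving out mouse 1, 2 or 3 gave -3.13, -1.86 and -2.96. Averaging its 2 probe sets gave -1.49 (adjusted p = 0.0420). The second probe set was near log2 4 throughout, from 3.94 to 4.60. Tnfrsf1a, the death-domain TNF receptor of most cell types, stood at 5.81 to 6.12 in Grem1- and at 5.21 to 6.02 in Grem1+, a difference of -0.42 (SE 0.34).

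Tnfrsf21, a death-domain receptor of broad expression, stood at 8.42, 8.16 and 8.00 in Grem1- and at 8.89, 9.82 and 9.23 in Grem1+. Its fractions did not overlap, but at 1.12 (SE 0.35) Tnfrsf21 missed the threshold (limma adjusted p = 0.102), with 1.06 without mouse 3. Its second probe set stood at 5.17 to 6.19 in Grem1- and 6.71 to 8.29 in Grem1+, and the mean of both differed by 1.40 and passed (adjusted p = 0.0358). Fas, the receptor of Fas ligand, stood at 5.64, 4.86 and 5.98 and at 7.83, 6.27 and 5.24. It differed by 2.19 and 1.42 in mice 1 and 2 and by -0.74 in mouse 3, so the mean difference of 0.96 (SE 0.66) did not pass. It was 0.34 without mouse 1, 0.73 without mouse 2 and 1.80 without mouse 3.

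Tnfrsf13c, the receptor of B cells for the survival factor BAFF, stood at 8.08, 9.24 and 8.85 in Grem1- and at 8.23, 6.71 and 8.20 in Grem1+. The fractions overlapped, and at -1.01 (SE 0.61) Tnfrsf13c missed the threshold (limma adjusted p = 0.316). Without mouse 2 it differed by -0.25, without mouse 1 by -1.59 and without mouse 3 by -1.19. On the same arrays the mean over the 10 tested B lineage markers was 6.79 to 7.62 in Grem1- and 4.65 to 4.99 in Grem1+, and 5 of the 10 fell. Cd22, Ms4a1, Pax5, Blnk and Vpreb3 were among the B lineage markers not tested. Tnfrsf13b and Tnfrsf17, the other BAFF receptors, reached at most 4.09 and 3.09. Tnfrsf18, a costimulatory receptor of T cells, ranged from 3.50 to 5.29 over the arrays and differed by -0.73 (SE 0.45), or by -0.20 without mouse 2. Tnfrsf19, an orphan receptor of epithelial and neural progenitors, ranged from 3.04 to 5.18 and differed by 0.32 (SE 0.31). Ngfr, the neurotrophin receptor that also marks stromal cells, ranged from 3.65 to 4.36 and differed by -0.02 (SE 0.26), with a sign that changed when dim values were set to log2 4. None of these 3 passed.

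**Figure D2:**
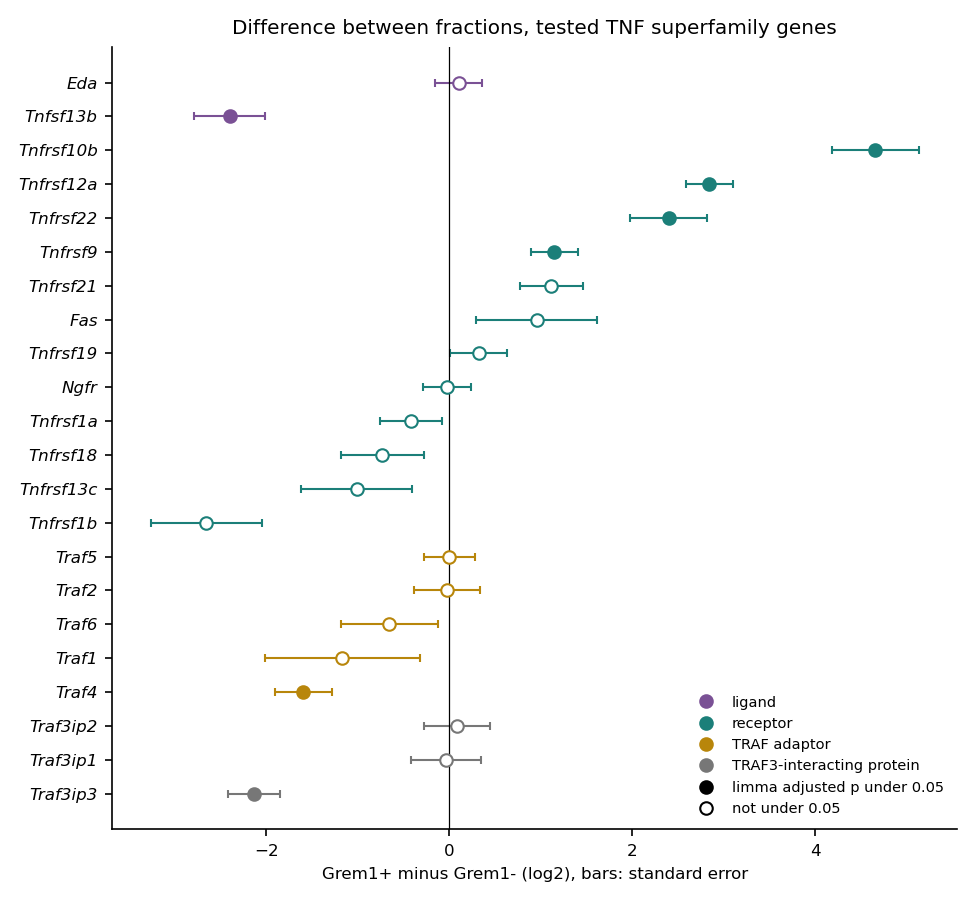
Difference between fractions (Grem1+ minus Grem1-, log2) of the 22 tested members with its standard error, by role; filled points passed a limma adjusted p of 0.05. The 4 filled receptors lie at 1.15 to 4.66, and the filled ligand, adaptor and TRAF3-interacting gene at -2.40, -1.59 and -2.13.

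Ligands were mostly dim. Of 11 ligand genes only Tnfsf13b and Eda could be tested. Tnfsf13b (Entrez gene 24099) encodes BAFF, which myeloid and stromal cells make and B cells need. It stood at 7.51, 8.03 and 6.81 in Grem1- and at 5.03, 4.93 and 5.20 in Grem1+. The fractions did not overlap, the Grem1+ arrays lay closer together than the Grem1- arrays, and the difference was -2.40 (SE 0.39, limma adjusted p = 0.0272), with -2.48, -3.11 and -1.61 by mouse. Leaving out mouse 3 gave -2.79. When dim probe sets were kept, Tnfsf13b did not pass (adjusted p = 0.0550). Of its 2 untested probe sets, the brighter was above log2 4 on 1 array only, at 5.75 in the Grem1- array of mouse 3. Of the 18 monocyte and macrophage markers, 11 were tested, 4 fell and 2 rose, and their mean was 5.77 to 6.64 in Grem1- and 4.55 to 5.54 in Grem1+. The 16 tested granulocyte markers averaged 9.71 to 10.03 and 5.42 to 7.34, and 13 of them fell. Whether these shifts have a part in the fall of Tnfsf13b was not tested.

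Eda, the ligand ectodysplasin of skin appendages, stayed near the limit, at 3.76 to 4.005 in Grem1- and 3.81 to 4.22 in Grem1+. The lymphotoxin genes Lta and Ltb, and Tnfsf10, Tnfsf4 and Tnfsf8, were below log2 4 on all 6 arrays. Tnf itself stood at 3.85, 4.10 and 4.16 in Grem1- and at 3.63, 3.52 and 3.57 in Grem1+, too dim to test. Tnfsf9, the ligand of Tnfrsf9, reached 4.54 and 4.82 in the Grem1+ arrays of mice 1 and 2, and was dim on the other 4. Tnfsf14, which binds the lymphotoxin beta receptor, exceeded log2 4 on 2 arrays and reached 4.30.

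Fasl, the death ligand of cytotoxic lymphocytes, stood at 7.11 in the Grem1- array of mouse 2 and between 2.42 and 2.96 on the other 5 arrays with the same probe set. Its second probe set was at 2.74 to 2.95 on all 6 arrays. On the array of mouse 2, 8 of 14 T and NK cell markers with a probe set were above log2 4, against 7 and 8 on the Grem1- arrays of mice 1 and 3. The cytotoxic granule gene Gzma stood at 3.43, 7.39 and 9.41 in the Grem1- arrays of mice 1, 2 and 3, and at 2.56 to 2.78 in Grem1+. Cd3d was highest on the Grem1- array of mouse 2, at 5.14, whereas Cd2 and Cd247 were lowest there among the Grem1- arrays, at 4.03 and 9.19.

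**Figure D3:**
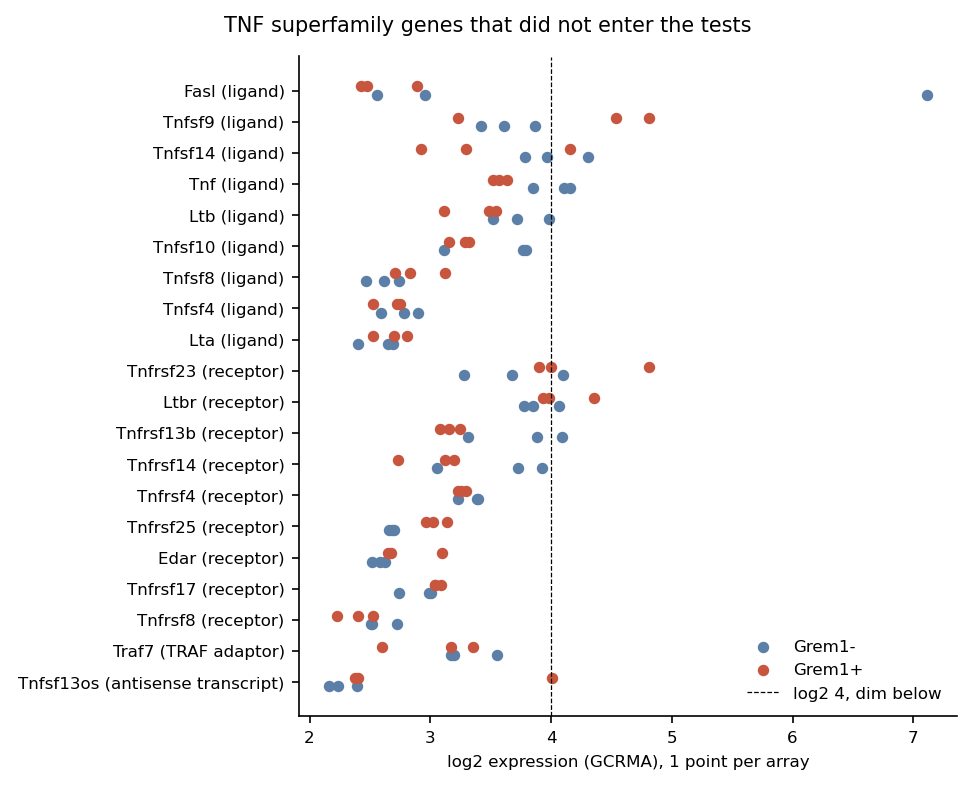
Log2 expression on each of the 6 arrays (Grem1- blue, Grem1+ red) of the 20 members that were too dim to test, each with the probe set that reached the highest value; the dashed line marks log2 4. Fasl at 7.11 on the Grem1- array of mouse 2 stands apart, and the next highest value is 4.82 for Tnfsf9.

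Receptors that could not be tested numbered 9. Edar, Tnfrsf4, Tnfrsf8, Tnfrsf14, Tnfrsf17 and Tnfrsf25 were below log2 4 on all arrays. Ltbr, the lymphotoxin beta receptor of stromal cells, lay at 3.78 to 4.36 and Tnfrsf13b at 3.08 to 4.09.

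TRAF adaptors bind the tails of receptors without a death domain and pass the signal on as ubiquitin ligases or scaffolds. Of the 5 tested, Traf4 (Entrez gene 22032) fell. It stood at 4.63, 4.04 and 4.58 in Grem1- and at 2.76, 2.96 and 2.74 in Grem1+, where each array was dim. Traf4 therefore entered the test only through the Grem1- arrays, the fraction where it was high. The fitted difference was -1.59 (SE 0.31, limma adjusted p = 0.0380). With the dim arrays set to log2 4, Traf4 was at least 1.33-fold lower, and it no longer passed (difference -0.41, adjusted p = 0.349). Without mouse 3 the fitted difference was -1.47. Its second probe set, 3.97 to 4.78 in Grem1- and 3.45 to 3.83 in Grem1+, represented the gene when dim probe sets were kept, and there Traf4 did not pass (difference -0.67, adjusted p = 0.229).

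Traf1, an adaptor of activated lymphocytes and a target of NF-kappaB, stood at 5.14, 6.66 and 5.84 in Grem1- and at 6.27, 4.04 and 3.82 in Grem1+. It differed by 1.13 in mouse 1 and by -2.61 and -2.02 in mice 2 and 3, and at a mean of -1.17 (SE 0.85) Traf1 missed the threshold (limma adjusted p = 0.402). Leaving out mouse 1 gave -2.32, which did not pass with the block (adjusted p = 0.0711) and passed without it (adjusted p = 0.0435). Leaving out mouse 2 or 3 gave -0.45 and -0.74. A second Traf1 probe set stood at 4.28, 4.63 and 4.78 in Grem1- and at 3.47, 3.03 and 4.16 in Grem1+. With that probe set the fractions did not overlap, and Grem1+ was lower in mouse 1 as well. Traf6, the adaptor shared with Toll-like receptors, stood at 5.92 to 7.01 in Grem1- and at 5.50 to 6.59 in Grem1+ and did not pass (difference -0.65, SE 0.53). Traf2 and Traf5 differed by -0.02 (SE 0.37) and 0.003 (SE 0.28), and the sign changed for Traf2 when dim values were set to log2 4 and for Traf5 with quantile normalization. Traf7 was below log2 4 on all 6 arrays.

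Of the TRAF3-interacting genes, Traf3ip3 (Entrez gene 215243), a membrane protein known from lymphocytes, fell. It stood at 6.91, 6.73 and 6.37 in Grem1- and at 4.85, 4.24 and 4.52 in Grem1+, without overlap. The difference was -2.13 (SE 0.28, limma adjusted p = 0.0189), by -2.06, -2.49 and -1.85 in mice 1, 2 and 3, and -2.28 without mouse 3. The 18 pan-haematopoietic markers had a median difference of -3.44, and whether they have a part in the fall of Traf3ip3 was not tested. Traf3ip1, a protein of cilia, and Traf3ip2, an adaptor of interleukin 17 receptors, differed by -0.03 (SE 0.38) and 0.08 (SE 0.36) without passing. The sign of Traf3ip1 changed when dim values were set to log2 4.

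The genes around the receptors were taken from 5 lists with 68 genes, of which 53 were tested. In all, 3 rose and 6 fell, or 17.0% of the 53, where 20.2% of all tested genes passed (11.7% higher and 8.51% lower). Their median difference was -0.26, against 0.04 over all tested genes. Of 26 tested genes of receptor-proximal signalling and cell death, 1 rose and 4 fell (median -0.41), so 19.2% passed. Tnfaip3, the ubiquitin-editing enzyme that ends NF-kappaB signalling, stood at 10.34, 10.15 and 10.79 in Grem1- and at 4.22, 5.60 and 8.34 in Grem1+. Its fractions did not overlap, mouse 3 was highest in both, and the difference was -4.38 (SE 0.78, limma adjusted p = 0.0323). Without mouse 3 it was -5.34 and without mouse 1 it was -3.51. When dim probe sets were kept, Tnfaip3 did not pass (adjusted p = 0.0816).

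The other genes of that list that passed were Madd, Sharpin, Casp8 and Tnip2. Madd, which binds the death domain of Tnfrsf1a, differed by -2.98 (SE 0.48, limma adjusted p = 0.0261), or by -2.93 without mouse 3, and did not pass when dim probe sets were kept (adjusted p = 0.0591). Sharpin, a subunit of the linear ubiquitin ligase, differed by -2.84 (SE 0.50, adjusted p = 0.0316), or by -3.27 without mouse 3. Probe sets with names ending in _s_at, _x_at or _a_at are called shared here, by name alone. The tested probe set of Sharpin ends in _a_at, which does not show that other genes share its signal. Without shared probe sets Sharpin differed by -0.93 and did not pass (adjusted p = 0.216). Sharpin also missed when dim probe sets were kept (adjusted p = 0.0714). Casp8, the caspase that death receptors activate, differed by -2.06 (SE 0.32, adjusted p = 0.0255), or by -1.99 without mouse 3. Without the mouse as a block Casp8 did not pass (adjusted p = 0.0519). Tnip2, which binds Tnfaip3, rose from 3.30, 4.31 and 2.98 to 5.75, 6.29 and 6.13, a difference of 2.53 (SE 0.34, adjusted p = 0.0200), or 1.95 with values below log2 4 set to 4 and 2.22 without mouse 3. Ripk1 and Fadd, the core adaptors of death receptor signalling, were not tested.

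Of 10 tested NF-kappaB and IkappaB genes, 0 rose and 1 fell (median -0.35). The gene that fell was Nfkbie, an inhibitor of NF-kappaB. It stood at 8.64, 9.16 and 9.77 in Grem1- and at 3.80, 5.30 and 4.40 in Grem1+, a difference of -4.69 (SE 0.40, limma adjusted p = 0.0107), or -4.35 without mouse 3. The mean of its 2 probe sets differed by -3.09 (adjusted p = 0.0162). Without shared probe sets Nfkbie was not measured. Of 3 tested genes of ligand shedding, 1 passed (33.3%, against 20.2% of all genes). It was Adam10, the protease that sheds Fas ligand. Adam10 fell by 1.58 on the log2 scale (SE 0.29, limma adjusted p = 0.0347) and differed by -1.76 without mouse 3. Adam17, the TNF sheddase, differed by -0.17 (SE 0.26). Of the 6 superfamily genes with other symbols, Cd40 and Relt were tested and differed by 0.37 (SE 0.25) and -0.49 (SE 0.29), without passing.

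Of 12 tested TNF target genes, 2 rose (16.7%, against 11.7% of all genes) and 0 fell (median 0.24). Without overlap between fractions, 5 were higher in Grem1+ and 3 lower. That was 66.7% of the list, where 43.1% of all genes did not overlap. Mmp3, the stromelysin of cartilage and synovium, was dim on the Grem1- arrays, at 3.75, 3.53 and 3.75. In Grem1+ it stood at 9.49, 7.95 and 9.92. The fitted difference was 5.45 (SE 0.44, limma adjusted p = 0.0104). With the dim arrays set to log2 4, Mmp3 was at least 34.8-fold higher in Grem1+ (adjusted p = 0.0123). The fitted difference of Mmp3 without mouse 3 was 5.09. Mmp3 entered the test only through the Grem1+ arrays, the fraction where it was high. Icam1, an adhesion molecule, went from 6.38, 7.16 and 7.67 to 10.24, 10.22 and 9.94, a difference of 3.07 (SE 0.41, adjusted p = 0.0189), or 3.46 without mouse 3. Vcam1, another adhesion target, went the other way without passing, at -2.87 (SE 0.74, adjusted p = 0.0697). So did Cxcl2 at -1.55 (adjusted p = 0.0502) and Tnfaip2 at -1.41 (adjusted p = 0.0637). Cxcl1, Ptgs2 and Ier3 were higher in Grem1+ without overlap and did not pass either. They differed by 1.42, 1.15 and 0.78 (limma adjusted p = 0.150, 0.202 and 0.157). Of the fibroblast markers 9 of 16 rose on the same arrays, with means of 5.81 to 6.59 in Grem1- and 8.01 to 9.003 in Grem1+, and their part in these differences was not tested.

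**Figure D4:**
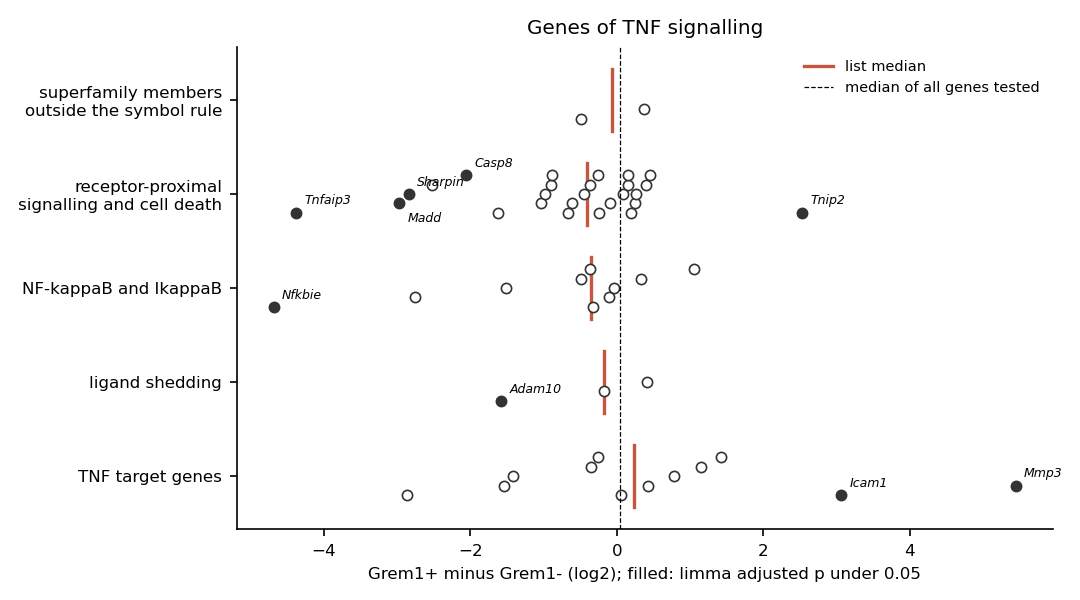
Difference between fractions (log2) of the 53 tested genes from 5 lists of TNF signalling; filled points passed a limma adjusted p of 0.05, red bars are list medians and the dashed line is the median of all tested genes. Filled genes of receptor signalling lie on the left apart from Tnip2 at 2.53, and both filled target genes, Icam1 and Mmp3, lie on the right at 3.07 and 5.45.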

How the data were processed

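RNA of 6 sorted fractions was amplified, labelled with biotin and hybridised to Affymetrix arrays, per the labels' protocols. The authors deposited log2 values for each probe set. GCRMA is the tool named in the submitters' processing notes, with version and settings not given in the sources used here. The log2 scale follows from the range of values, 0.798 to 14.05, and the scanner files were not used here. Of 45101 probe sets, 34945 had 1 gene symbol in the platform annotation, 932 had several and 9160 had none, and 64 were controls. All 42 members matched RefSeq by Entrez identifier.

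Each gene was represented by its probe set with the highest mean among those above log2 4 on at least 3 arrays, a limit that was chosen, not measured. limma 3.58.1 (R 4.3.3) was fitted to all 10151 genes with a mouse block, two-sided, adjusted by the Benjamini-Hochberg method at 0.05, with 2 residual and 2.10 prior degrees of freedom. The pairing comes from the series design text; deviations of same-numbered arrays correlated at 0.014, 0.074 and 0.046. Every member was named; members past the threshold or at least log2 2 apart were given array by array. From each pathway list up to 4 genes past the threshold were named, or up to 2 tested genes. Casp8, Adam17, Vcam1, Cxcl1, Cxcl2, Ptgs2, Ier3, Tnfaip2, Ripk1 and Fadd were named after their values were seen. So were Gzma, Cd2, Cd3d, Cd247, Xist and the other array-by-array members. The members and lists were chosen with earlier results of these data known. The fit was also run on simulated data with independent noise on each array and no mouse effect, which does not test the mouse block. Alternatives covered the block, each mouse left out, the filter, the choice of probe set, shared probe sets, normalization, a floor at log2 4 and limma's trend. The number of arrays limits the precision.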

Additional observations from a re-analysis of the deposited data

Results flagged for a closer look

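Member probe sets outside the tests were flagged where a Grem1+ array lay above log2 4 and above each Grem1- array. The rule looked for high Grem1+ arrays only, so it fixed the direction of the contrast between highest values. Tnfsf9 reached 4.82 in Grem1+ against at most 3.86 in Grem1-, but its Grem1+ array of mouse 3, at 3.23, was the lowest of all. Tnfrsf23 reached 4.81 against 4.10, with its other Grem1+ arrays at 3.90 and 3.998. An untested probe set of Tnfrsf19 reached 4.70 against 3.93. An untested probe set of Traf6 reached 4.43 in the Grem1+ array of mouse 2 against at most 4.15 in Grem1-. Its mean was nevertheless lower in Grem1+, at 3.54 against 3.90. The other untested probe sets of Traf6 differed by -0.97, -0.96 and 0.08. Ltbr reached 4.36 against 4.07, with its other Grem1+ arrays at 3.93 and 3.99. Tnfsf13os, the antisense transcript, reached 4.01 on 1 array against 2.39. None of these differences was tested.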

How the results depend on the processing

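Tnfrsf10b, Tnfrsf12a and Traf3ip3 each passed under 13 of 16 alternatives and missed the threshold only with the block kept and a mouse left out. That setting leaves 1 residual degree of freedom, and leaving out mouse 1, 2 or 3 gave 0 members and 0 genes in either direction in limma. At an unadjusted p under 0.05 these were 10, 9 and 9 members and 3018, 2919 and 2881 genes. With a mouse left out and no replicate block, 2, 2 and 3 members were higher and 2, 4 and 2 lower, of 767, 764 and 769 genes higher and 507, 422 and 525 lower. With all mice and no replicate block, 3 members were higher and 4 lower: Tnfrsf9 lost its call and Tnfrsf1b gained one. Without shared probe sets 2 members were higher, as Tnfrsf22 was not measured and Tnfrsf9 missed (adjusted p = 0.0526). Without the filter on dim probe sets 18193 genes were tested, 1 member was lower (Traf3ip3) and 500 genes were lower. The stricter filter, above log2 6, kept 10 members. Tnfrsf22 passed under 9 of 15 alternatives, Tnfsf13b under 11 of 16, Traf4 under 8 of 15 and Tnfrsf9 under 5 of 15. No member past the threshold changed its direction. The 9 pathway genes that passed also missed the threshold with the block kept and a mouse left out; with no block, Mmp3, Nfkbie and Icam1 passed without each mouse, and Casp8, Sharpin and Adam10 missed each time. Among the others, with values below log2 4 set to 4 the difference was 0.055 for Ngfr, 0.020 for Traf2 and 0.011 for Traf3ip1, and with quantile normalization it was -0.0032 for Traf5. With a mouse left out, with or without the block, Ngfr ranged from -0.13 to 0.083, Traf2 from -0.24 to 0.36, Traf3ip1 from -0.44 to 0.25 (0.10 without mouse 2), Traf3ip2 from -0.28 to 0.34 and Traf5 from -0.15 to 0.17 (-0.012 without mouse 3). The cause of these changes was not tested.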
